A study of Homo sapiens with 8 samples.

Results

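Solute carriers are membrane proteins that move amino acids, sugars, nucleotides, metals, ions and lipids across the plasma membrane and the membranes of organelles. The genes described here are the solute carrier symbols (SLC, a family number, A and a member number) that ranked at the 60th expression percentile or higher in at least 1 of 4 treatments of cultures labelled HepG2. They number 151 of 324 such symbols in the deposited table, which holds 25918 gene models, of which 12624 passed the same level. Where a symbol had several rows, the row with the highest mean was kept. The members belong to 38 families, and the table marks all 151 as coding. The members were thus selected on their expression percentiles, and their levels are given as a description. The m6A peaks were not used in the choice.

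HepG2 is a human line from a liver tumour. The 4 treatments, with no untreated culture analysed here, were UV at 0.04 J/cm2 with 4 h of recovery, heat shock at 43 °C for 30 min, hepatocyte growth factor (HGF) at 10 ng/ml and interferon gamma (IFNg) at 200 ng/ml. Both ligands were given overnight, and whether the recovery also applied to heat shock is not clear from the wording. Each treatment had 1 library of RNA precipitated with an antibody against N6-methyladenosine (m6A) and 1 input library. Without replicates, the differences below could not be checked against the spread between samples, and no p-value is given. Values for the 4 treatments are listed in the order UV, heat shock, HGF and IFNg unless a treatment is named. The percentile is the rank of a gene model within its treatment, taken from the authors' deposited quantile. It gives no amount, library depth is unknown, and the headers do not say whether it was made from the precipitated or the input RNA. In bulk RNA, fewer cells with a transcript and less of it per cell cannot be told apart.

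The label was checked against 13 hepatocyte markers. Of these, 11, 6, 4 and 3 lay at the lowest rank in the 4 treatments, a rank that 11798 gene models shared after UV. TTR alone passed the 60th percentile, at 76.1, 71.5, 43.0 and 42.0. HNF4A stood at 56.9 after IFNg. ALB and AFP stood at 57.6 and 32.7 after heat shock, and at 24.9 and 20.4 after HGF. KRT7, a keratin of bile duct and other simple epithelia, ranked between 99.2 and 99.8 in all 4 treatments. Of 4 cholangiocyte markers, 3 passed the level, against 1 of 5 blood cell markers and 2 of 6 fibroblast and endothelial markers. The hepatocyte markers therefore go against the label, and the cells are called cultures labelled HepG2 throughout. Genes with the lowest rank in common set a floor, which was 45.5, 32.7, 20.4 and 18.4 in the 4 treatments. Before treatments were compared, every lower value was set to the UV floor, the highest of the 4. Of the members, 8, 1, 0 and 1 sat at these floors. Under the UV floor lay 0, 9, 4 and 6 members, whose values were raised to it. The values printed below are those deposited, while gaps and pair differences use the raised ones.

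m6A is laid down on mRNA by a methyltransferase complex, most often within the consensus that includes the letters GGAC, and is read by proteins that act on splicing, translation and decay. In the assay used here, polyA RNA was broken into fragments of about 100 nt, and fragments enriched by the antibody were listed as peaks, each with a position along the transcript. Solute carriers of liver cells take up nutrients, exchange metabolites between cytosol and mitochondria, and supply sugar nucleotides to the Golgi.

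Sequence around the peaks was read for members whose deposited gene model had the same chromosome, strand and length along the genome as a GENCODE 29 transcript of that symbol, and whose peaks fell in exons of the same number and length. This held for 14 of the 108 members with a peak, and for 555 of 7486 other gene models. The letters GGACT, searched on the transcript strand and overlapping GGAC by construction, lay within 50 nt of 16 of 53 peaks in these 14 members (30.2%, exact Clopper-Pearson 95% interval 18.3 to 44.3). Peaks of the same site in several treatments were counted separately here and share their sequence. Windows of the same length moved by 200 nt upstream or downstream held GGACT in 7.84% and 9.80% of cases, and windows moved by 400 nt in 18.8% and 4.26%. In the other gene models, 28.4% of 2792 peaks had GGACT within 50 nt, against 7.49% to 9.42% of the moved windows. GGAC lay near 54.7% of the members' peaks (exact 95% interval 40.4 to 68.4) and 61.8% of the others. The moved windows held GGAC in 23.5% to 47.1% of cases in the members and in 29.5% to 34.1% in the others. The members' 47.1% came from windows moved by 200 nt upstream (32.9 to 61.5). That interval overlaps the one at the peaks. 4 windows of 30 bases are shown because they mark the places where listed peaks of members and the letters GGACT fall together, in the 5′ UTR, the coding sequence and near the stop codon. Capitals mark GGACT, and the coordinates are GRCh38 from the annotation of GENCODE 29.
SLC2A1, 3′ side of the stop codon, chr1:42926867-42926896, minus strand: agaagaatattcaGGACTtaacggctccag
SLC12A3, 3′ side of the stop codon, chr16:56913553-56913582, plus strand: tccaaatctggctGGACTccacttccatgg
SLC1A3, coding sequence, chr5:36680489-36680518, plus strand: attaacatggatgGGACTgccctctatgag
SLC35A4, 5′ UTR, chr5:140566947-140566976, plus strand: tcctagctccatgGGACTcgccccaagact
The SLC2A1 and SLC12A3 windows belong to sites listed in all 4 treatments. In SLC2A1, GGACT began at position 2162, more than 50 nt past the HGF (2108) and IFNg (2095) peaks. In SLC12A3 it began at 3283, more than 50 nt past the UV (3224) and IFNg (3228) peaks. The SLC1A3 window belongs to a site listed after UV and heat shock. That of SLC35A4 belongs to a site listed after heat shock and IFNg. A match of letters is a description and does not show that the base was methylated.

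The best-ranked members were transporters of amino acids, adenine nucleotides, phosphate, lactate and zinc. SLC7A5, the large neutral amino acid transporter (chr16:86421130-86460601 as deposited, on a build that the sources used here do not give), ranked at 99.4, 99.1, 99.6 and 99.7. SLC3A2 (chr11:62380094-62412929), the heavy chain that pairs with SLC7A5 at the membrane, ranked at 98.4, 96.2, 97.2 and 99.2. Both chains of this exchanger thus ranked near the top of every treatment. SLC25A5 (98.5, 98.2, 97.8 and 97.5), an ADP/ATP carrier of the mitochondrial inner membrane, and SLC25A3 (98.1, 96.5, 97.7 and 97.8), the mitochondrial phosphate carrier, came next to them. SLC25A5 shares long stretches with SLC25A4, SLC25A6 and pseudogenes, so its level is uncertain. The remaining leaders were SLC38A2 and SLC38A1, sodium-coupled transporters of neutral amino acids, SLC43A3, a nucleobase transporter, SLC39A7, a zinc transporter of the endoplasmic reticulum, and SLC16A3 and SLC16A1, which carry lactate and pyruvate. The means of these 10 members lay between 94.6 and 99.5.

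The range over the 4 treatments was under 10 points in 44 of the 151 members, of which 15 ranged by under 5 points, and 10 points or more in the others. The medians of the 151 members were 71.8, 71.3, 70.6 and 71.2, and the median of all gene models past the level was 75.6 in each treatment. Members at the 90th percentile or higher numbered 17, 19, 23 and 24. In 88 members all 4 values reached 60, and 23 members passed through 1 treatment only. Close to the level, SLC10A5, SLC5A10 and SLC7A8 were inside it with highest values of 60.1, 60.2 and 60.7, and SLC39A11, SLC38A9 and SLC17A7 were outside it at 59.6, 59.5 and 59.4.

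The transport classes, set by family number, differed in how many of their symbols were members. All 5 symbols of the SLC35A family, which carries sugar nucleotides into the Golgi, and 36 of 43 mitochondrial carriers of family SLC25 were members. Metal transporters gave 21 of 32, amino acid families 27 of 60, monocarboxylate, lipid and bile acid families 18 of 33, and sodium, proton, chloride, bicarbonate and calcium exchangers 16 of 49. Sugar families gave 10 of 34, nucleoside, vitamin, phosphate, choline and peptide families 14 of 45, and the organic ion families, which include many uptake transporters of liver and kidney, 4 of 23. The class medians of the members' means ran from 62.5 for the sugar nucleotide family to 80.1 for the amino acid families.

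Within the classes, the leading mitochondrial carrier after SLC25A5 and SLC25A3 was SLC25A1, the citrate carrier, at 87.3, 87.3, 96.4 and 94.5. The zinc importers SLC39A1 and SLC39A6 had means of 92.9 and 92.4. SLC27A2, an acyl-CoA synthetase for very long chain fatty acids, had a mean of 91.5. SLC12A3, known as the sodium-chloride cotransporter of the kidney tubule, stood at 83.4 after UV and 95.9 after HGF. SLC4A2, an anion exchanger, had a mean of 89.5. SLC20A1, a phosphate importer, had 89.9, SLC29A1, a nucleoside transporter, 81.3, and the choline transporter-like SLC44A2 77.9. Among sugar carriers, SLC2A1 (GLUT1, the widely expressed glucose transporter) had 84.5, SLC5A3, the sodium-coupled myo-inositol transporter, 74.9, and SLC45A4 73.9. SLC35A4 had 80.1, while the UDP-galactose carrier SLC35A2 and the UDP-N-acetylglucosamine carrier SLC35A3 had 64.1 and 62.5. The best-ranked organic ion members were SLC22A5, the carnitine importer, at 71.9, SLC47A1, an exporter of organic cations, at 65.8, and SLC22A23 at 60.7.

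A member was counted as higher or lower in a treatment when its percentile there was at least 10 points above, or below, each of the remaining 3 values. In all, 28 members met this in some treatment and 123 in none. Since the same values chose the members, nothing is read from these counts. Of the 23 members that passed through 1 treatment only, 5 were called higher in that treatment. For these 5 of the 28, the choice as a member and the call rest on the same value.

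Heat shock gave the most calls, with 11 members lower (7.28% of members, against 3.98% of all gene models past the level) and 2 higher (1.32% against 2.87%). The 11 were 4 mitochondrial carriers, a fatty acid transporter (SLC27A4), nucleoside transporters (SLC29A1 and SLC29A2), chloride cotransporter family members (SLC12A4 and SLC12A9), the zinc importer SLC39A3 and the amino acid transporter SLC38A7. SLC25A39 (chr17:39752522-39757658), which carries glutathione into mitochondria, stood at 92.6, 74.5, 97.3 and 98.1. The heat shock value was 18.1 points under the nearest other. SLC29A1 stood at 86.2, 67.3, 85.1 and 86.6, and SLC39A3 at 68.9, 51.1, 68.6 and 78.0. In these genes heat shock was the low treatment and UV stood near the ligands. The other mitochondrial carriers were SLC25A11 (74.6 after heat shock against 85.0 to 89.1), an oxoglutarate carrier, SLC25A10 (65.3 against 78.1 to 88.6), a dicarboxylate carrier, and SLC25A6 (67.0 against 82.6 to 84.5), an ADP/ATP carrier whose level is uncertain for the reason given above. The 2 members higher after heat shock, SLC7A7 at 61.0 and SLC10A5 at 60.1, were members through that treatment alone.

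The transcripts of all 11 members lower after heat shock were rich in G and C, with a GC content of 56.9% to 65.4%, in the most GC-rich of 3 equal groups of gene models. Over all gene models past the level with a GC value, 387 of the 458 lower after heat shock lay in that group. Gene models were then sorted into 40 bins of GC content, and in each treatment the median of its bin was subtracted from every gene. After this GC correction, 0 of the 11 met the 10 points. The calls of all gene models were not counted after the correction, so no such share stands beside this count. At a difference of 20 points, heat shock had 0 members lower, and by a log2 rank counted from the top, 3.

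After IFNg, 5 members were higher (3.31% of members, against 3.39% of all gene models past the level) and 4 lower (2.65% against 3.02%). SLC15A3 (chr11:60461136-60475833), a transporter of histidine and small peptides in lysosomes, stood at 45.5 (the UV floor), 54.7, 45.6 and 83.5. Its gap of 28.9 points to the nearest other treatment was the largest among the calls of members, and it was the sole member that met a difference of 20 points. After the GC correction it was the one IFNg call that still met the 10 points. SLC15A3 and SLC43A1 reached the 60th percentile after IFNg alone, so both were members through that treatment. The others were SLC1A4, an exchanger of neutral amino acids (59.3, 67.6, 74.8 and 86.3), SLC19A1, the reduced folate carrier (73.0, 64.8, 71.0 and 83.1), SLC25A25, an ATP-magnesium/phosphate carrier (71.4, 66.4, 69.6 and 81.5), and SLC43A1, an amino acid transporter (58.4, 49.3, 58.4 and 72.1). Lower after IFNg were SLC41A2, a magnesium transporter (55.2 against 67.4 to 79.3), SLC30A6, a zinc transporter (55.0 against 71.9 to 73.9), SLC25A12, an aspartate/glutamate carrier (57.0 against 68.0 to 74.2), and SLC35A3 (49.3 against 63.5 to 72.9).

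HGF and UV gave few calls. After HGF, 2 members were higher (1.32% against 1.57% of all gene models past the level) and 2 lower (1.32% against 1.39%). SLC25A27, a mitochondrial carrier of the uncoupling protein group, stood at 79.6 after HGF and at 55.5 to 61.4 elsewhere. SLC7A8, an amino acid transporter related to SLC7A5, stood at 60.7 after HGF and at or under the UV floor elsewhere, so it was a member through HGF alone. The carnitine importer SLC22A5 (61.6 against 73.7 to 76.8) and SLC25A15, the mitochondrial ornithine carrier (57.0 against 67.9 to 71.3), were lower. After UV, 1 member, SLC35A5, was higher (72.5 against 57.3 to 61.5; 0.662% of members against 1.93% of all gene models past the level). The heme transporter SLC48A1 was lower after UV (51.5 against 62.2 to 85.0; 0.662% against 2.17%). After the GC correction, SLC25A27, SLC7A8 and SLC48A1 still met the 10 points, and SLC22A5, SLC25A15 and SLC35A5 did not.

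**Figure D1:**
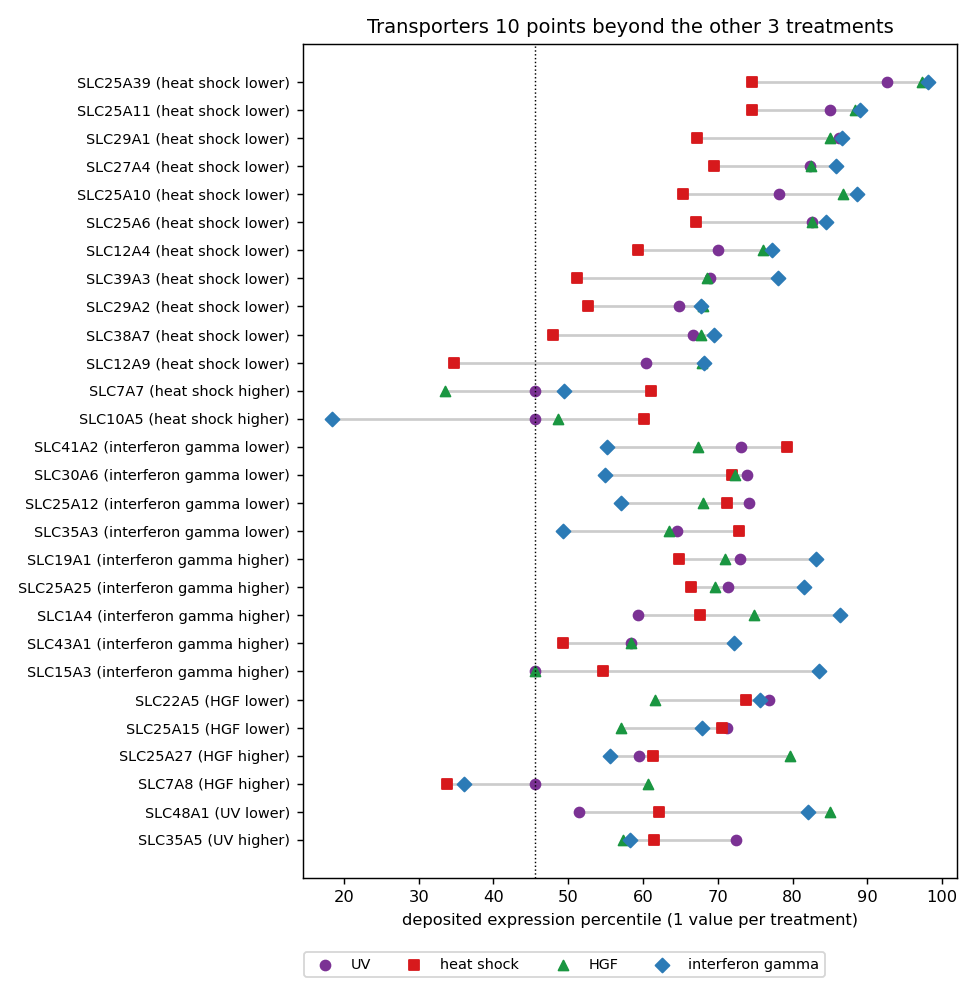
Deposited expression percentile (x axis) of the 28 members that lay 10 points beyond the other 3 treatments (y axis, with the treatment and direction of the call), 1 symbol per treatment, no error bars because each treatment has 1 value. The dotted line marks the highest floor, 45.5, and the 11 heat shock squares at the top lie left of the other 3 symbols, while the IFNg diamond of SLC15A3 lies at 83.5.

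The stress treatments (UV and heat shock) were also set against the ligands (HGF and IFNg), counting a member when the pair means differed by at least 10 points and the values did not overlap. By this rule 21 members were higher in the stress pair (13.9%, against 14.6% of all gene models past the level) and 22 in the ligand pair (14.6% against 16.2%). The members' shares lay close to those of all gene models. Of the 22, 5 were also among the 11 members lower after heat shock (SLC25A39, SLC25A10, SLC12A4, SLC12A9 and SLC38A7). Their heat shock value counts in both results.

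Higher after the stresses were SLC16A7, a monocarboxylate transporter (71.8 after UV and 78.1 after heat shock, against 54.2 after HGF and 54.1 after IFNg), SLC16A9 of the same family (65.1 and 65.7 against 31.4 and 42.6), and SLC35A1, the CMP-sialic acid carrier (68.0 and 74.9 against 55.5 and 48.1). SLC26A2, a sulfate transporter, SLC25A24, an ATP-magnesium/phosphate carrier, SLC30A9, SLC7A2, a cationic amino acid transporter, SLC25A17, a peroxisomal carrier, SLC41A2 and SLC25A46 followed, with pair differences of 14.0 to 18.7 points. Higher after the ligands were SLC6A9, a glycine transporter (87.0 after HGF and 93.7 after IFNg, against 58.3 after UV and 62.8 after heat shock), SLC48A1 (85.0 and 82.1 against 51.5 and 62.2) and SLC25A22, a mitochondrial glutamate carrier (78.2 and 87.3 against 60.1 and 61.0). SLC39A13, a zinc transporter, SLC1A4, SLC25A10, SLC4A2, SLC24A6, a sodium-calcium exchanger, SLC12A9 and SLC25A39 followed, with ligand values 14.1 to 17.8 points higher. Some values behind these differences lay under the UV floor of 45.5 and were raised to it. They were both ligand values of SLC16A9, IFNg of SLC7A2, and heat shock of SLC39A13 and SLC12A9. After UV, SLC39A13 sat at that floor.

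The pair difference moved with GC content, in the members and in the table as a whole. Spearman's rho between GC content and the stress minus ligand difference was -0.73 over the 151 members and -0.72 over 11134 gene models, which share the same 8 libraries. Among the 46 members in the most GC-poor group, 17 were higher after the stresses and 0 after the ligands. Of the 59 in the most GC-rich group, 1 was higher after the stresses and 21 after the ligands. Over all gene models past the level, the GC-poor group of 3712 had 1275 higher after the stresses and 43 after the ligands. The GC-rich group of 3713 had 39 and 1499. After the GC correction, 8 members were higher in the stress pair and 6 in the ligand pair. Of the original 21, 4 were among the 8 (SLC16A9, SLC35A1, SLC25A29 and SLC41A3). Of the original 22, 3 were among the 6 (SLC6A9, SLC48A1 and SLC1A4). The rest met the rule only after the correction. They were SLC10A3, SLC7A5, SLC47A1 and SLC22A23 in the stress pair, and SLC25A27, SLC2A3 and SLC6A14 in the ligand pair. SLC7A5 had a corrected difference of 11.7 points, while its deposited values ranged by 0.598 points. The pair calls of all gene models were not counted after the correction. What part GC content has in these differences was not tested beyond this correction.

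**Figure D2:**
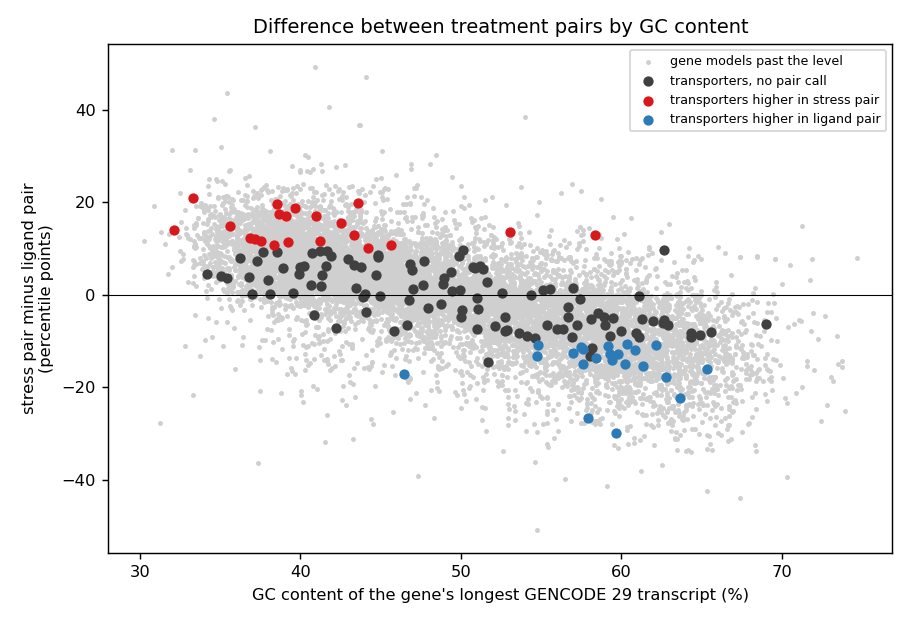
GC content of the longest GENCODE 29 transcript of each gene (x axis, percent) against the stress pair minus the ligand pair (y axis, percentile points), with 1 dot per gene. The 21 members higher in the stress pair lie mostly at the left and the 22 higher in the ligand pair mostly at the right, along the same slope as the grey gene models.

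Peaks were listed in 108 of the 151 members (71.5%, against 60.2% of all gene models past the level and 64.7% of the coding ones). UV gave 98 members with a peak (64.9% against 54.5%). Heat shock gave 82 (54.3% against 43.9%), HGF 76 (50.3% against 42.2%) and IFNg 49 (32.5% against 27.8%). Among coding gene models past the level the shares were 58.8%, 47.7%, 45.5% and 30.3%, which lie within the exact 95% intervals of the members (56.7 to 72.5, 46.01 to 62.4, 42.1 to 58.6 and 25.1 to 40.5). In all 4 treatments, 42 members had a peak (27.8% against 22.4%, and 24.4% of coding models). The order of the treatments was that of the whole table, which listed 13307, 9803, 9111 and 5280 peaks. The part of library depth in that order was not tested, since depth is unknown. The intervals cover counting error only.

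Members with high percentiles carried peaks more often. At the 90th percentile or higher after UV, all 17 of 17 members had a peak (exact 95% interval 80.5% to 100%), against 67.9% of gene models in that range and 70.7% of the coding ones. Heat shock had 17 of 19 (66.9% to 98.7%), against 56.5% and 58.5%. HGF had 17 of 23 (51.6% to 89.8%), against 49.1% and 50.2%, and IFNg 16 of 24 (44.7% to 84.4%), against 38.2% and 39.3%. In each treatment the shares of all and of coding gene models lay under the members' interval. The same genes fill this range in several treatments, so the 4 values are not independent. Between the 60th and 75th percentile the members' shares were 64.3%, 41.5%, 42.9% and 15.4%, and those of coding gene models were 56.6%, 43.8%, 43.8% and 23.3%. Each of the latter lay within the members' interval. From the 75th to the 90th percentile, the members had 71.1%, 64.1%, 66.7% and 52.3%. Coding gene models had 65.5%, 54.7%, 53.5% and 40.6% there, again within the members' intervals. Under the 60th percentile, 46.4% of 28 members had a peak after heat shock (27.5% to 66.1%), against 25.4% of coding gene models, and after the other treatments the coding value lay within the interval.

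**Figure D3:**
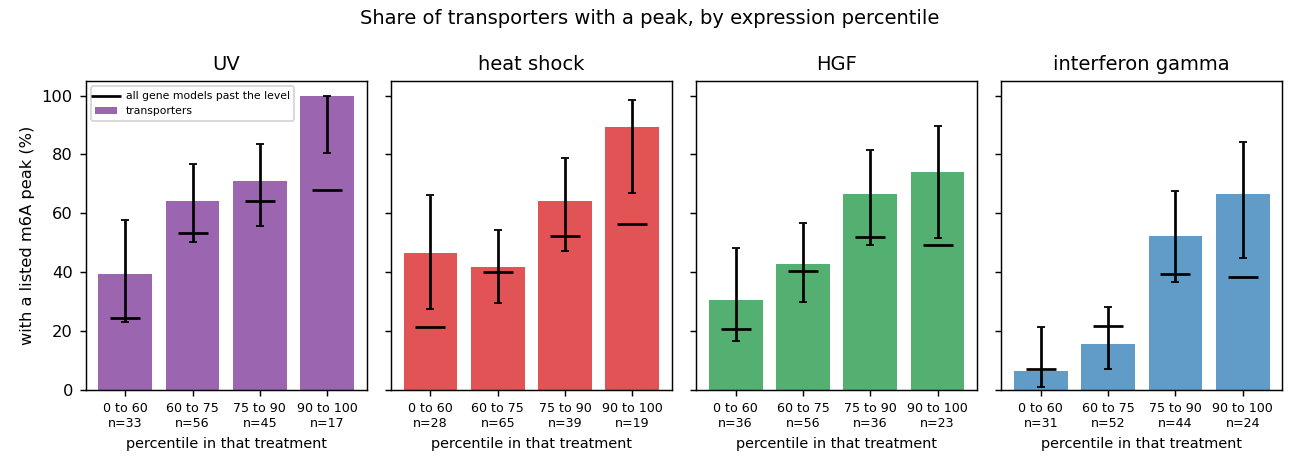
Share of members with a listed m6A peak (bars, percent, with exact 95% intervals for counting error) by expression percentile in the same treatment (x axis, with the number of members), and the share of all gene models past the level (black dashes). Bars rise from left to right after UV, HGF and IFNg, and at the 90th percentile or higher every bar and its interval lie above the dash.

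Of the 20 members with a mean percentile of 90 or more, 1 had no peak, SLC38A5, an amino acid transporter at 87.7, 80.4, 97.7 and 95.6. With a mean of 75 or more, 5 of 57 had none. A peak in 1 treatment only was listed for 15, 2, 1 and 2 members. The share of members with a peak was 81.2% among the ion exchangers (13 of 16), with 8 of 10 sugar carriers. It was 78.6% in the nucleoside, vitamin, phosphate, choline and peptide families, and 72.2% in the monocarboxylate, lipid and bile acid families. Metal transporters had 71.4%, the amino acid families 70.4% and the mitochondrial carriers 66.7%. A peak was listed for 3 of 5 SLC35A members and 2 of 4 organic ion members. Peaks in all 4 treatments were listed in 13 of 27 amino acid family members and in 7 of 36 mitochondrial carriers. The share was 22.4% over all gene models past the level and 24.4% over the coding ones. The amino acid members also ranked higher, with a class median of 80.1 against 74.1. The part of expression percentile in these class counts was not tested.

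The members' peaks numbered 180, 138, 117 and 72. Within transcripts, a larger share of them was placed in the 3′ UTR than over all gene models past the level, by the segment labels of the authors' deposited table. After UV, 63 of 180 were in the 3′ UTR (35.0%, exact 95% interval 28.1 to 42.4, against 21.4%). Heat shock had 43 of 138 (31.2%, 23.6 to 39.6, against 20.6%), HGF 41 of 117 (35.04%, 26.5 to 44.4, against 20.5%) and IFNg 19 of 72 (26.4%, 16.7 to 38.1, against 20.4%). The value of all gene models lay under the interval in the first 3 treatments and within it after IFNg. Coding peaks made up 28.9%, 32.6%, 29.1% and 36.1%, against 39.0%, 40.7%, 44.4% and 47.8%. Around the stop codon the shares were 25.6%, 26.1%, 30.8% and 30.6%, against 27.1%, 27.4%, 29.4% and 29.02%. Peaks of 1 transcript are not independent, so the genes were counted as well. A 3′ UTR peak in any treatment was listed in 48 of 108 members with a peak (44.4%), against 32.3% of gene models with a peak, and a coding peak in 48 (44.4% against 48.8%). Most peaks lay in exons of 400 nt or longer. They held 162 of the 180 UV peaks of members and 92.0%, 96.6% and 93.1% of those in the other treatments, against 85.7%, 87.8%, 90.3% and 88.7% over all gene models past the level. The length of the members' 3′ UTRs was not compared with that of other genes.

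**Figure D4:**
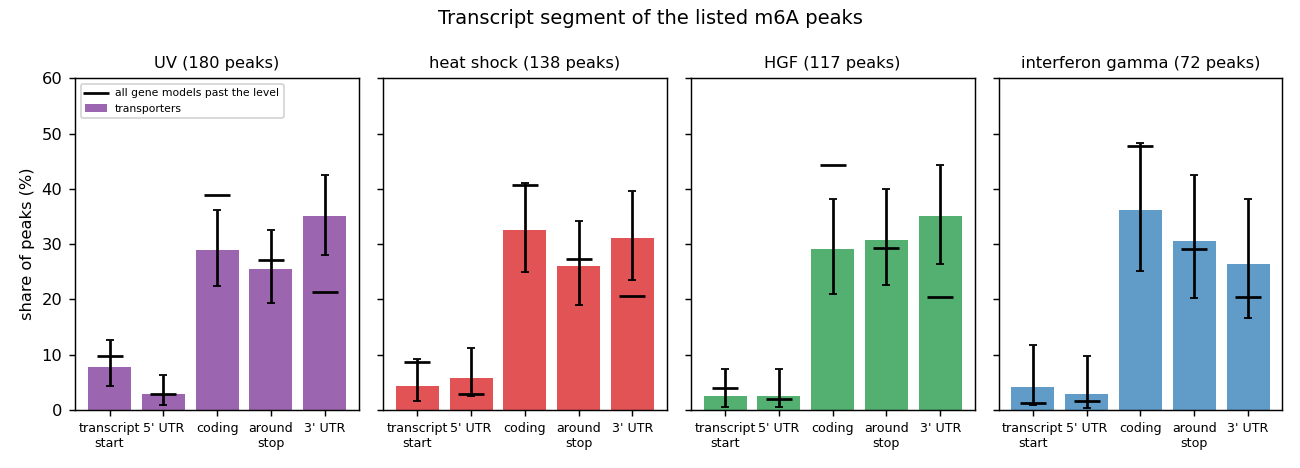
Share of the members' listed peaks in each transcript segment (bars, percent, with exact 95% intervals for counting error) in the 4 treatments, and the share over all gene models past the level (black dashes). The 3′ UTR bars stand at 35.0%, 31.2%, 35.0% and 26.4%, above the dashes, and the coding bars stand below them.

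Peaks of a gene model within 100 nt were joined into 1 site. The members had 237 sites, of which 39 in 34 members were listed in all 4 treatments (16.5%, against 16.8% of 17290 sites of all gene models past the level), and 89 in 1 treatment. The latter (37.6% against 39.8%) were 49, 15, 14 and 11 sites, against 3555, 889, 1525 and 920 over all gene models past the level. The 39 sites were spread over the coding sequence (12 sites), the region around the stop codon (12) and the 3′ UTR (12, in 9 members), with 1 at the transcript start and 2 that crossed a border between segments.

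SLC7A5, the top-ranked member, had 3 sites listed in all 4 treatments, all in its last exon of 3003 nt in the 3′ UTR. The middle one lay at positions 3441, 3441, 3445 and 3448 of the transcript, with deposited scores of 4.44, 3.36, 5.15 and 4.69. The score is the authors' own enrichment score, with a lowest value of 2 and a formula that the sources used here do not give. The libraries of the 4 treatments thus placed this site within a few bases of each other. SLC3A2, its partner, carried the sole 4-treatment site labelled as transcript start throughout, at positions 144, 155, 162 and 150, with scores of 3.04, 2.09, 2.92 and 2.29. A second SLC3A2 site near the stop codon was listed after UV, heat shock and HGF.

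The cationic amino acid transporter SLC7A1 had the most sites, 7, of which 2 in its last exon of 5170 nt were listed in all 4 treatments, near positions 2574 and 5709. A further SLC7A1 site at position 2918 after HGF and 2923 after IFNg, with scores of 4.98 and 6.04, was listed after the ligands and not after the stresses. SLC7A6, a light chain that also pairs with SLC3A2, had 6 sites, with 1 in all 4 treatments at positions 3232, 3231, 3208 and 3227. SLC5A3 had 6 sites, all in 1 exon of 11400 nt that holds the coding sequence and the stop codon. Of these, 2 were listed in all 4 treatments, near positions 1082 and 2723. The folate transporter SLC46A1 had 2, at position 973 in the coding sequence and 2236 in the 3′ UTR, with scores of 4.77, 3.83, 5.56 and 5.74 for the former. The other 30 members with such a site had 1 each. Among them, SLC39A14, a zinc and iron importer, had the highest mean score, 6.72, at a site near its stop codon (8.45, 5.34, 7.10 and 5.98). SLC2A1 had its site at positions 2113, 2115, 2108 and 2095 and the letters GGACT of the window shown above begin at position 2162.

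**Figure D5:**
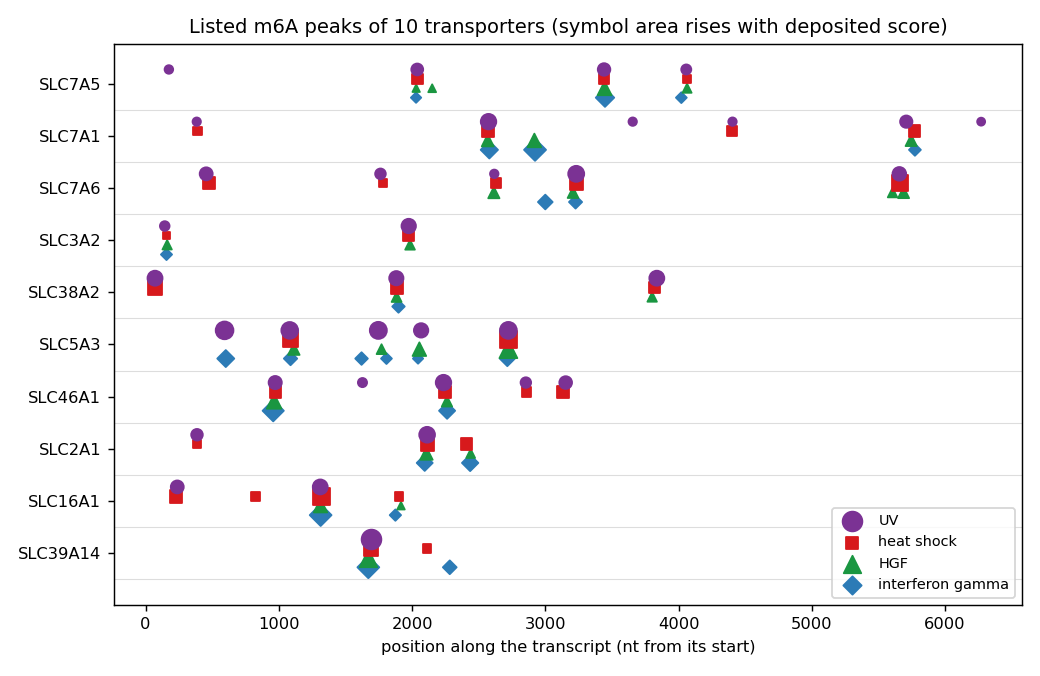
Positions of listed m6A peaks (x axis, nt from the transcript start) in 10 members chosen after their values were seen, with 1 row of symbols per treatment in each gene and a symbol area that rises with the deposited score. Vertical stacks of 4 symbols are sites listed in all 4 treatments, such as the 3 stacks of SLC7A5.

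Scores were compared as ranks among the 2925 sites listed in all 4 treatments, and a site was counted when its rank lay at least 25 points beyond the other 3 treatments. Of the members' 39 sites, 2 were higher after UV (against 3.93% of all such sites) and 0 lower (3.08%), 0 higher after heat shock (3.38%) and 3 lower (2.91%), 3 higher after HGF (3.18%) and 1 lower (3.69%), and 5 higher after IFNg (7.62%) and 3 lower (7.9%).

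The widest gap was at a coding site of the zinc importer SLC39A6, with scores of 8.21, 6.45, 5.12 and 2.09, and a rank of 2.77 after IFNg against 76.3 to 99.0 elsewhere. It was also the sole member site whose score after 1 treatment differed by a log2 ratio of 1 or more from the other 3. SLC39A6 itself ranked at 95.1, 96.0, 91.9 and 86.8 in expression. SLC1A5, a glutamine transporter, had a rank of 11.6 after HGF against 50.9 to 54.8. Higher after IFNg were SLC25A38, a mitochondrial glycine carrier (96.9 against 46.0 to 58.0), SLC38A10 (95.6 against 18.2 to 58.9) and SLC25A28, a mitochondrial iron importer (74.6 against 36.0 to 41.6), and lower was SLC33A1, an acetyl-CoA transporter (30.2 against 60.8 to 81.1). Higher after UV were SLC6A9 (52.2 against 9.44 to 13.5) and SLC44A2 (67.6 against 12.4 to 32.5). SLC25A32, a folate and flavin carrier of mitochondria, was lower after heat shock (36.4 against 71.1 to 88.3), and SLC39A7 was higher after HGF (42.5 against 8.27 to 11.6). In SLC6A9 the UV score rank was the highest of the 4 while its expression percentile after UV was the lowest.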

How the data were processed

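The 4 treatments were read from 1 table of gene models deposited by the authors. Its expression column is a quantile, a fraction from 0 to 1 per the file headers, written here as a percentile. Its peak score is an enrichment score of the authors, per the file headers. The sources used here name no aligner, peak caller, normalisation or genome build. The members, gene lists, levels and thresholds were chosen with earlier results of these data known. Named genes were members called in a treatment, the 10 best ranked, the 3 best of each class, up to 10 per direction by pair difference, members with most sites in all 4 treatments, up to 10 score-rank calls by size, well-ranked members without a peak, and those next to the level. 1 gene that this rule names is not reported here. Other genes were picked with their values in view. The GC content came from the longest GENCODE 29 transcript of a symbol, matched for 151 of 151 members and 88.2% of gene models past the level. Each treatment had 1 library of each kind, so values are shown without tests. Alternatives covered floors, thresholds, filters, row choice, rank scale, GC bins, scores and site joining. The scripts ran under Python 3.11.15 with SciPy 1.17.1, NumPy 2.4.6, pandas 2.3.3 and matplotlib 3.10.9. The counting rules were tested on simulated data.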

Additional observations from a re-analysis of the deposited data

How the results depend on the processing

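No paired analysis was possible because each treatment had 1 library of each kind, and no replicate could be left out. Of 142 alternative values, 75 stayed close to the reported ones (counts within 1.5 times, percentages within the 95% interval) and 67 moved. Below, 8 counts are given in the order UV higher and lower, heat shock higher and lower, HGF higher and lower, IFNg higher and lower. They were 1, 1, 2, 11, 2, 2, 5 and 4 as reported. At 5 points they were 7, 11, 16, 29, 6, 10, 17 and 13. At 20 points they were 0, 0, 0, 0, 0, 0, 1 and 0. Against the median of the other 3 treatments they were 18, 16, 20, 31, 14, 19, 24 and 22. On the log2 rank scale UV, HGF higher and lower, heat shock higher and IFNg lower had 0, and heat shock lower 3. With a mean of 60 or more, heat shock higher had 0, HGF higher 1 and IFNg higher 3. With no filter, UV higher had 2 and heat shock higher 6. With values as deposited, HGF lower had 4 and IFNg lower 7. After the GC correction, UV lower had 3, heat shock lower 0, HGF lower 1, IFNg higher 2 and lower 1, the stress pair 8 and the ligand pair 6. These counts can hold other members than the reported ones. Of the reported calls, 0 of 2 HGF lower, 1 of 5 IFNg higher and 0 of 4 IFNg lower were kept. UV higher stayed at 1, yet the reported call was not kept, so a count that stayed close need not name the same members. Taking the median over rows of a symbol, joining peaks at 50 or 200 nt and counting each site once moved no value.

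With scores of 4 or more, 47.7%, 27.8%, 19.9% and 9.93% of members had a peak after UV, heat shock, HGF and IFNg. With scores of 3 or more, heat shock had 45.7%, HGF 37.1% and IFNg 19.9%. Among 37 members at 75 or higher in all 4 treatments, the shares were 83.8%, 78.4%, 73.0% and 73.0%. With scores of 4 or more, transcript start peaks were 3.77% after UV and 0 after HGF and IFNg, where 5′ UTR peaks were also 0. By a log2 ratio of scores of 1 or more, the score calls fell to 0 for UV higher, heat shock lower, HGF higher and lower and IFNg higher, and to 1 for IFNg lower. The causes were not tested. The files give no depth.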

Other observations

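Transporters outside the symbol pattern were followed in 2 lists. Of 42 related symbols found (SLCO organic anion transporters, SLC35 families B to F, mitochondrial pyruvate carrier genes and partner proteins), 28 passed the level and 21 of these had a peak, with 2 having peaks in all 4 treatments. Over all gene models past the level, 60.2% had a peak and 22.4% had peaks in all 4 treatments. BSG, the partner of SLC16A1 and SLC16A3 at the membrane, stood at 94.7, 87.8, 99.3 and 99.0 (UV, heat shock, HGF and IFNg). SLCO1B3, known as a liver uptake transporter, stood at 69.4, 81.1, 65.0 and 51.1, while SLCO1B1 stood at the floor after UV, at 47.97 after heat shock, and at 22.5 and 26.9 after the ligands. These genes were picked after their values were seen.

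Of 46 ABC transporters found, 22 passed the level and 13 of these had a peak, with 6 having peaks in all 4 treatments. The shares over all gene models past the level were 60.2% and 22.4%. ABCC2, an exporter of conjugated compounds, stood at 93.2, 91.9, 91.3 and 86.1, and ABCB11, the bile salt exporter, at the floor after UV and heat shock, at 31.7 after HGF and 21.0 after IFNg.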
